A study of Rattus norvegicus with 4 samples.

Results

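The serpins and the proteins of coagulation and complement form a large secreted output of the liver. Their genes were taken from the rat liver array by symbol alone: the serpin family, the complement components C1 to C9 with their main regulators, and the clotting, kinin and fibrinolytic factors. The rule found 76 rows with 73 distinct symbols among the 21791 rows of the deposited table, and no expression value entered it. It matched no row named C3, C4, F8, Fga or Masp1, and these genes were not analysed here. It placed 22 rows in the complement system, 19 in coagulation, kinin release and fibrinolysis, and 35 among the remaining serpins.

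Liver RNA came from male Wistar rats aged 4 months, hybridised to an Illumina bead array. Offspring undernourished before birth, labelled FR30, were set against control offspring, and each prenatal group was fed either a high-fat or a standard diet. The 4 groups were therefore FR30 high-fat, FR30 standard, control high-fat and control standard. Each group has 1 deposited sample, so no difference given here has a replicate check or a test, and whether a sample pools several animals is not stated in the labels.

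Serpins are inhibitors that trap a target protease by changing their own shape, although some members have lost this activity and carry hormones or assist protein folding instead. Coagulation is a cascade of proteases made largely by hepatocytes that ends in fibrin, and plasmin later dissolves the clot. Complement is a parallel cascade that marks and perforates microbes, with soluble inhibitors that protect host cells. Several serpins link these systems: antithrombin restrains thrombin, and the C1 inhibitor restrains both the first complement proteases and the contact system.

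Detection was called at a detection p-value below 0.05. Of the 76 members, 57 (75%) were detected in all 4 samples, against 39.604% of all rows, 3 were detected in some samples, and 16 in none. The 4 samples had 9350, 9254, 9152 and 9371 detected rows in the order FR30 high-fat, FR30 standard, control high-fat and control standard. The FR30 standard sample stood apart in precision: 117 of its detected rows had a deposited standard deviation (STDEV) above 20% of the signal, against 0, 0 and 1 in the FR30 high-fat, control high-fat and control standard samples. Among the members only F3 was affected. In the normalized table it also had a summed adipocyte marker signal of 6711.4, against 1779.7, 1575.3 and 1432.8 in the other samples in the same order, and 4 of 5 skeletal muscle markers detected, against 0 elsewhere. In the non-normalized table this sample had the lowest sums for both lists: 1363 against 1938, 1594 and 1389 for adipocyte markers, and 767 against 798, 808 and 805 for skeletal muscle markers. These sums were not scaled between samples. The fitted mean background there was also lowest in this sample, at 147.5 against 155.83, 155.86 and 150.85 in the same order. The sums thus show no excess of these markers, but do not show less of them than elsewhere. Erythroid markers moved with diet: 2 of 3 compared were at least 1.5-fold higher with the high-fat diet in each prenatal group. Over all rows the share higher was 3.68% in FR30 and 2.53% in control offspring. The log2 difference for Hbb, a globin, was 0.78 in FR30 and 0.74 in control offspring. The other, Alas2 (0.81 and 0.60), was dim, with signals from 196.5 to 242.4. The part of these markers in the members' values was not tested. Hepatocyte markers were detected for 9 of 10 rows in every sample, Apob being the exception, and none of them differed by 1.5-fold in any comparison. The markers include Serpina1, which is also a member.

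The members supplied 3.796% of the summed signal in the FR30 high-fat sample, 4.0878% in FR30 standard, 3.9753% in control high-fat and 3.9143% in control standard. Between 22 and 25 members had a signal of at least 10000 in each sample, and 8 were among the 50 brightest rows in every sample. Fgb and Fgg, which encode chains of fibrinogen, Serpina1, the liver's main elastase inhibitor, and Plg, the plasmin precursor, were among the brightest. The plot of signals by member shows that for most genes the 4 samples lay close together on a log scale, and that Serpina7 was spread most widely.

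**Figure D1:**
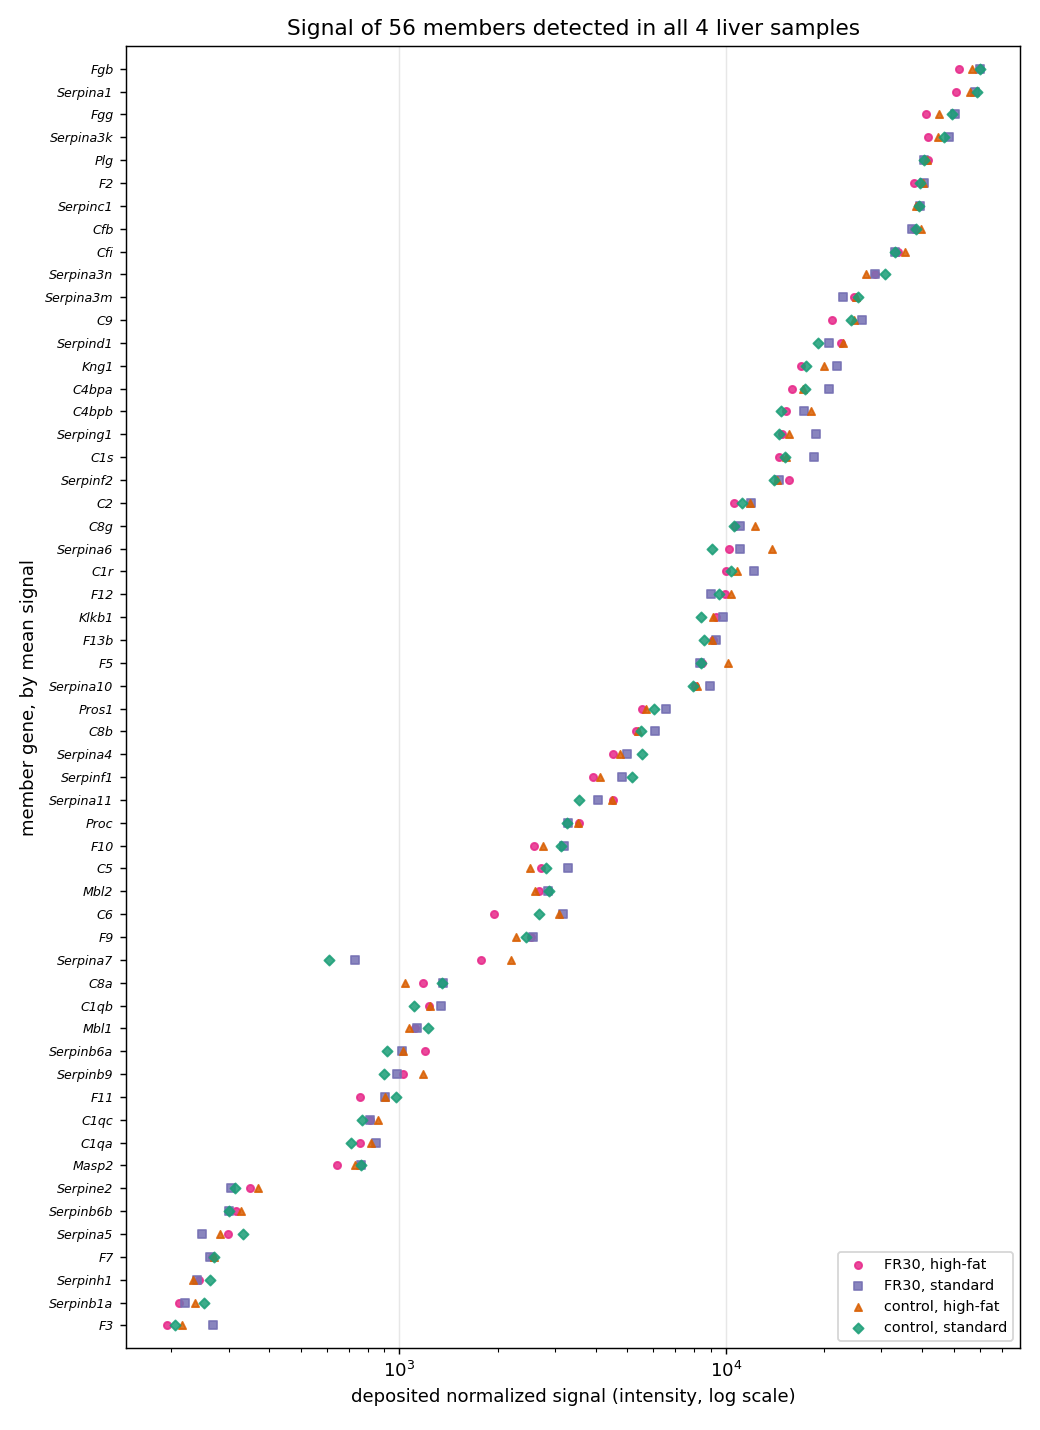
Deposited normalized signal (intensity, log scale) of 56 of the 57 members detected in all 4 liver samples, 1 symbol a row, with a marker for each sample. Signals of different genes come from different probes and do not rank their expression; within a row, Serpina7 shows both high-fat samples to the right of both standard samples.

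The hormone carriers contained the member with the widest diet difference. Serpina7 encodes thyroxine-binding globulin, a serpin without inhibitor activity that carries thyroid hormone in blood. Its deposited signal was 1783 ± 89.3 in the FR30 high-fat sample, 729 ± 3.64 in FR30 standard, 2192 ± 138 in control high-fat and 609.8 ± 21.3 in control standard (± is the deposited STDEV, for which the number of measurements is not stated). Both high-fat samples lay well above both standard samples. On the scale used for all fold changes here, after background removal and quantile normalization, Serpina7 was 2.78-fold higher with high-fat feeding in FR30 rats (log2 difference 1.48) and 4.35-fold higher in control rats (log2 difference 2.12). The diet difference was 0.64 log2 units smaller in FR30 offspring, as the values of 1 sample a group give it. The non-normalized signals gave the same order, with 2158 and 614 in FR30 rats with high-fat and standard feeding and 2251 and 563.5 in control offspring. In bulk liver, fewer cells of a type and less RNA per cell cannot be told apart.

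The 250 bases before the RefSeq start of Serpina7, and those of C6, which differed most among the complement genes, are printed here because both hold a match to a C/EBP-type motif. The motif searched was TTGCNNAA on either strand, and capitals mark the match. Coordinates are of the GRCr8 assembly, chrX:107457682-107457931 on the minus strand for Serpina7 and chr2:55573383-55573632 on the plus strand for C6.
Serpina7: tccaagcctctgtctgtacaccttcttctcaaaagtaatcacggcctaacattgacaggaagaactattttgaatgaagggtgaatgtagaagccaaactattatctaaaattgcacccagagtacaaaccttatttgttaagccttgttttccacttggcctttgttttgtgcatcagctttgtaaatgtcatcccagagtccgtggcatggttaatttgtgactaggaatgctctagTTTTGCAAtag
C6: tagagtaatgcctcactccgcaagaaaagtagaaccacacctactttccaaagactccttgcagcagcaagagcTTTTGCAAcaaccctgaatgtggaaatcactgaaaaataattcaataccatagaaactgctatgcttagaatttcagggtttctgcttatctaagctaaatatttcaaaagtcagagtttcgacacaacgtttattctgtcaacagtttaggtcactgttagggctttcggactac
The match begins 11 bases before the start in Serpina7 and 176 bases before it in C6, and in both the letters read ttttgcaa on the gene's strand. None of the other motifs searched (HNF1, CAAAGTCCA for HNF4, TTCNNNGAA for STAT and TGTTCT for the glucocorticoid receptor, each on either strand) was found in these 2 windows.

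RefSeq promoters were available for 55 of the 73 current member symbols, as 56 entries, and 44 of these belong to members detected in all 4 samples. The C/EBP-type motif was found in 13 of the 44 (29.5%) against 9.22% of all 33469 promoters in the table. The HNF1 motif was found in 4 of the 44 (9.09%), those of C5, F13b, Plg and Serpina4, against 0.323% of all promoters. For STAT the share was 18.2% (8 of 44) against 7.67%, for the glucocorticoid receptor 11.4% against 17.5%, and for HNF4 0 of 44 against 0.338%. Among the 12 entries of the remaining members, 3 held the C/EBP-type motif and 2 the glucocorticoid receptor motif. The HNF1, STAT and HNF4 motifs were found in 0 of these 12. Whether any motif goes with detection in liver was not tested. A match describes the letters in these windows and not the binding of a factor.

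Serpina6 encodes corticosteroid-binding globulin, the plasma carrier of glucocorticoids. The deposited signal was 10214 ± 207 in FR30 high-fat, 11050 ± 643 in FR30 standard, 13857 ± 759 in control high-fat and 9077 ± 87.7 in control standard. The control high-fat sample was highest and the control standard sample lowest. On the background-removed scale the diet difference was -0.10 log2 units in FR30 offspring and 0.62 (1.54-fold) in control offspring. The non-normalized table lists 2 probes, of which 1 was near background (signals from 176 to 224). The other had unscaled signals of 23643 and 19691 with high-fat and standard feeding in FR30 offspring, and 27564 and 16563 in control offspring. After scaling between samples, its log2 ratios between the diets were -0.10 in FR30 offspring and 0.63 in control offspring.

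**Figure D2:**
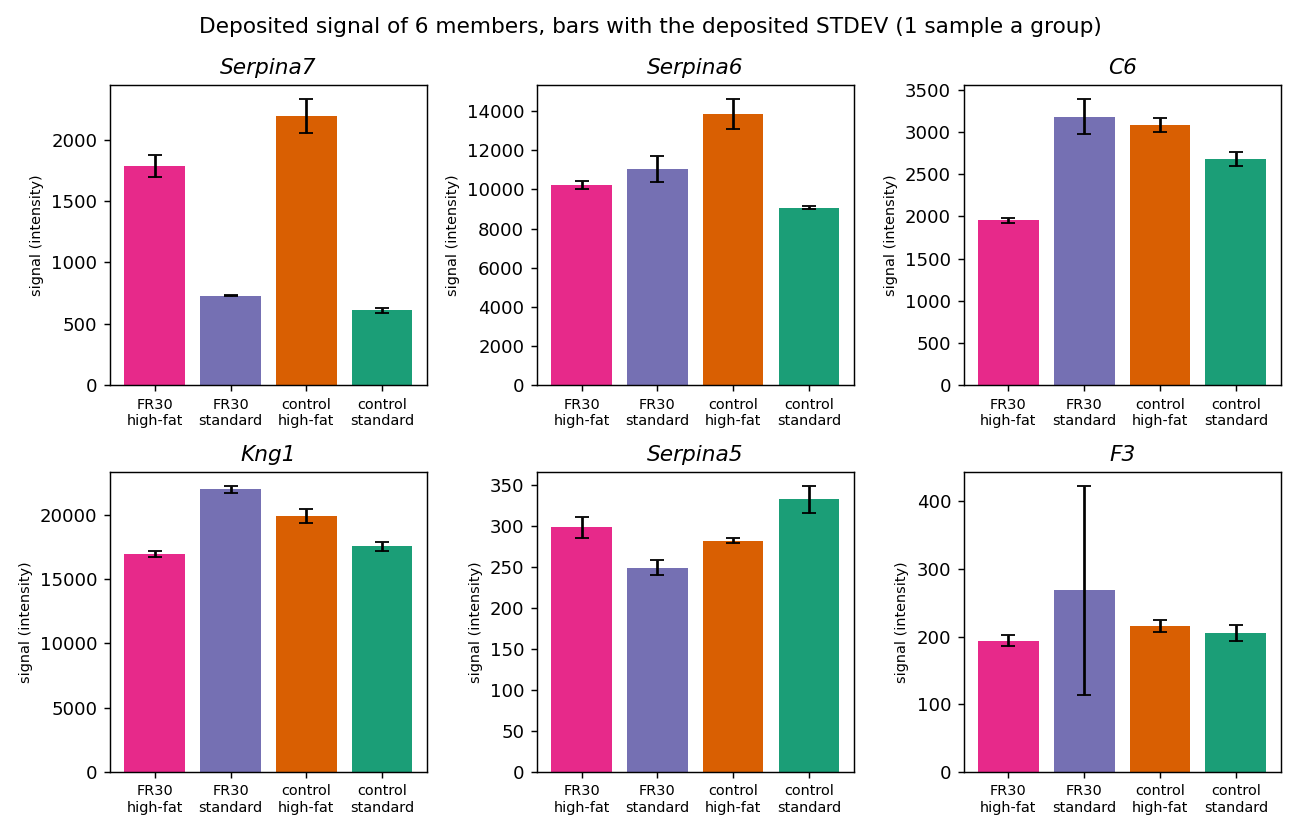
Deposited signal (intensity) of 6 members in the 4 samples, FR30 high-fat, FR30 standard, control high-fat and control standard from left to right; bars show 1 sample each and error bars the deposited STDEV. Serpina7 is high in both high-fat samples, C6 is lowest in FR30 high-fat, and the F3 bar of the FR30 standard sample has an STDEV of 154 on a signal of 268.5.

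At 1.5-fold few members stood apart with diet. Among the 60 members compared in FR30 offspring, 1 was higher (Serpina7) and 2 were lower (C6 and F3) on the high-fat diet, against 3.68% of all rows higher and 3.19% lower. Among the 59 compared in control offspring, 2 were higher (Serpina7 and Serpina6) and 0 lower, against 2.53% of all rows higher and 3.28% lower. The members' shares were 5% and 3.39% in FR30 and control offspring, against 6.87% and 5.81% of all rows in either direction, so their counts were near the background. Of 59 members compared with diet in both prenatal groups, 1 (Serpina7) was at least 1.5-fold higher in both and 0 were lower in both. Among all 9234 rows so compared, 100 were higher in both and 82 lower in both, so these counts were also near the background.

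**Figure D3:**
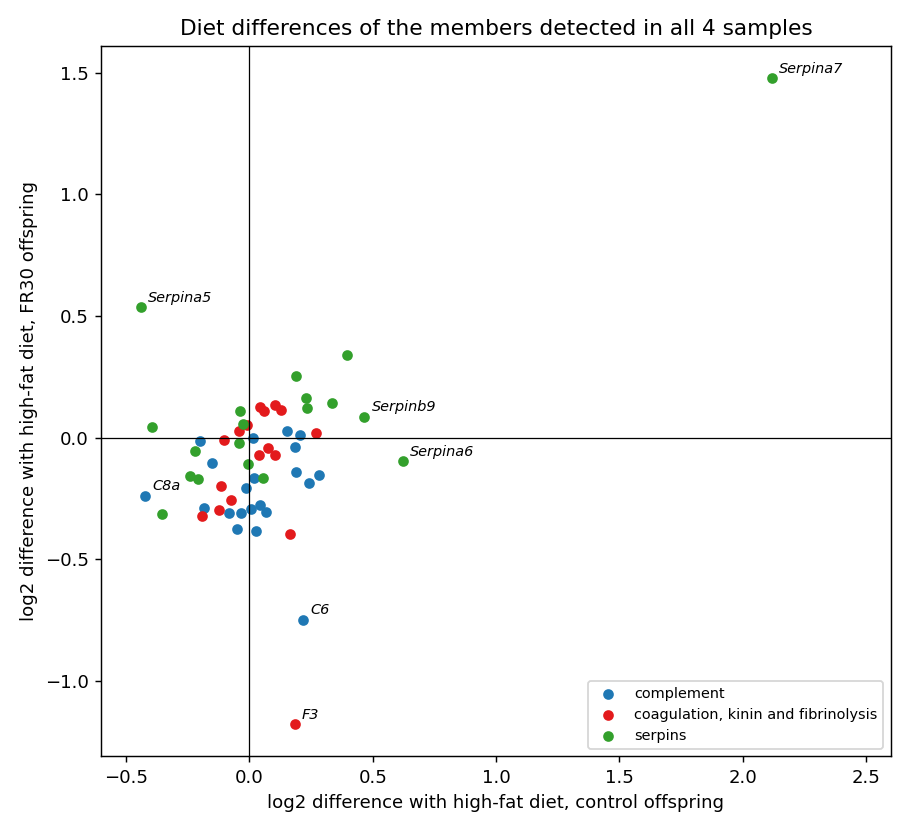
Log2 difference, high-fat minus standard diet, in FR30 offspring (y axis) against control offspring (x axis) for the 57 members detected in all 4 samples, coloured by system. Serpina7 lies far to the upper right, C6 and F3 lie low on the y axis, and most members lie near 0 on both axes.

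The prenatal comparisons also set few members apart. On the high-fat diet 0 of 59 members were higher and 1 was lower (C6) in FR30 than in control offspring, against 1.74% of all rows higher and 1.56% lower (3.3% either way). On the standard diet 1 of 58 was higher (F3) and 1 was lower (Serpina5), against 1.97% of all rows higher and 2.08% lower (4.05% either way). The difference between the diet differences, FR30 minus control, was at least 2-fold higher in 0 and lower in 1 (F3) of 57 members, against 1.11% of all rows higher and 1.09% lower (2.2% either way). Each sample enters 1 diet comparison and 1 prenatal comparison, so these counts share samples.

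The complement members moved little singly. The recognition subunits C1qa, C1qb and C1qc, which bind antibody complexes and come largely from macrophages, did not all share an order of samples. The C1qa signal was 757.7 ± 23.6 in FR30 high-fat, 849 ± 20.1 in FR30 standard, 818 ± 8.16 in control high-fat and 712 ± 17.7 in control standard. FR30 standard was highest for C1qa and C1qb, whereas C1qc was highest in control high-fat and its FR30 samples differed by less than their STDEVs. Control standard was lowest for each of these genes. The log2 diet difference of C1qa was -0.19 in FR30 offspring and 0.24 in control offspring, that of C1qb -0.14 and 0.19, and that of C1qc 0.01 and 0.20. All 6 macrophage marker rows found were detected in every sample, and their summed signal was 6232.2 in FR30 high-fat, 4096.4 in FR30 standard, 4401.7 in control high-fat and 5157.1 in control standard. Cd14 set that order: without it, as computed after seeing the data, the other 5 rows summed to 2136, 2353, 1941 and 2155 in the same order of samples, with FR30 standard highest. Their part in the C1q values was not tested.

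Downstream of recognition, C1r and C1s are the proteases that start the classical pathway. The C1s signal was 14555 ± 945 in FR30 high-fat, 18676 ± 548 in FR30 standard, 15298 ± 454 in control high-fat and 15177 ± 688 in control standard. The FR30 standard sample was the highest and the other samples lay close together. On the background-removed scale, C1s differed by -0.31 log2 units with diet in FR30 offspring and by -0.03 in control offspring (0.01 with median scaling), and C1r by -0.28 and 0.04. C2, which with C4 forms the classical convertase, and Masp2, a protease of the lectin pathway, gave -0.17 and -0.31 in FR30 offspring and 0.02 and -0.08 in control offspring. Cfb, the protease of the alternative convertase, was nearly level at 0.00 and 0.01. The mannose-binding lectins Mbl1 and Mbl2, which start the lectin pathway, gave -0.01 and -0.10 in FR30 offspring and -0.20 and -0.15 in control offspring.

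Among the terminal components, C6 joins the complex that perforates membranes. Its deposited signal was 1953 ± 28.8 in FR30 high-fat, 3181 ± 208 in FR30 standard, 3088 ± 84.0 in control high-fat and 2682 ± 80.5 in control standard. FR30 high-fat stood below the other samples by more than the deposited STDEVs. On the background-removed scale C6 was 1.68-fold lower with the high-fat diet in FR30 offspring (log2 difference -0.75), and 0.22 log2 units higher in control offspring. On the high-fat diet it was 1.63-fold lower in FR30 than in control offspring.

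C9, which forms the pore, had a signal of 21109 ± 592 in FR30 high-fat, 26097 ± 238 in FR30 standard, 24714 ± 904 in control high-fat and 24140 ± 887 in control standard. Again FR30 high-fat was lowest and FR30 standard highest. The 3 subunits of C8, which anchor the complex, gave log2 diet differences from -0.24 to -0.04 in FR30 offspring and from -0.42 (C8a) to 0.18 (C8g) in control offspring. C5, the precursor of an inflammatory peptide, gave -0.29 in FR30 offspring and -0.19 in control offspring. Its 2 probes differed in control offspring, at 0.04 and -0.55 in the non-normalized table after scaling between samples. Their unscaled signals with high-fat and standard feeding were 4237 and 3840 for 1 probe and 989 and 1348 for the other. C7 was detected in the FR30 standard sample only, at a signal of 186.6.

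The soluble inhibitors of complement did not all share this order of samples. Serping1, the C1 inhibitor, had a signal of 14860 ± 546 in FR30 high-fat, 18900 ± 413 in FR30 standard, 15670 ± 350 in control high-fat and 14612 ± 321 in control standard. The FR30 standard sample lay above the others, as it did for C4bpa, whereas C4bpb and Cfi were highest in control high-fat. The log2 diet differences were -0.31 in FR30 and 0.07 in control offspring for Serping1, -0.38 and -0.05 for C4bpa, and -0.16 and 0.28 for C4bpb, the chains of the C4b-binding protein. Those of factor I (Cfi), the protease that cleaves C3b and C4b, were 0.03 and 0.15.

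Taken over the 21 complement members detected in all 4 samples, small differences ran mostly 1 way. With the high-fat diet 2 were above 0 and 18 below in FR30 offspring (median log2 difference -0.21), against 13 above and 8 below in control offspring (median 0.02). Over all rows compared, 50.1% were below 0 in FR30 offspring (median -0.001) and 48.1% in control offspring (median 0.010). Between prenatal groups, 4 were above 0 and 17 below on the high-fat diet (median -0.10), against 17 above and 4 below on the standard diet (median 0.16). Over all rows, 50.9% were below 0 on the high-fat diet and 49.1% above 0 on the standard diet. These comparisons share samples. The FR30 standard sample was the highest of the 4 for 13 of the 21 members, against 26.3% of the 8630 rows detected in all 4 samples. FR30 high-fat was the lowest for 10 of 21, against 25.3% of those rows, and the highest for 0.

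The summed complement signal was 211055 in FR30 high-fat, 238613 in FR30 standard, 229972 in control high-fat and 218832 in control standard, or 1.12%, 1.25%, 1.2% and 1.14% of all signal. FR30 high-fat was also lowest for other bright liver genes. In the same order, hepatocyte markers summed to 265614, 301833, 294543 and 309320. Acute phase and other secreted liver proteins summed to 556147, 642392, 594514 and 648075. The largest signal of any row was 55694, 62311, 59302 and 63203. In deposited signal, a low FR30 high-fat sum was thus shared by these lists. These sums were taken before the quantile normalization used here. After it, the median log2 diet difference in FR30 offspring was -0.21 for complement and -0.11 for hepatocyte markers. For acute phase and other secreted liver proteins it was -0.06. Whether complement differs from these lists was not tested. The 18 below 0 in FR30 offspring were counted under every alternative processing, all on the same samples. The stricter detection p-value and the STDEV limit removed none of the 21 complement members, so they could not change this count. With the non-normalized signals, 1 complement member was above 0 and 18 were below with the high-fat diet in FR30 offspring. Those signals were matched to genes by row order with the use of the normalized signals, so this count is not an independent check. The part of adipocyte and muscle markers in the complement values was not tested. No member but C6 reached 1.5-fold, and the differences have no replicate check.

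**Figure D4:**
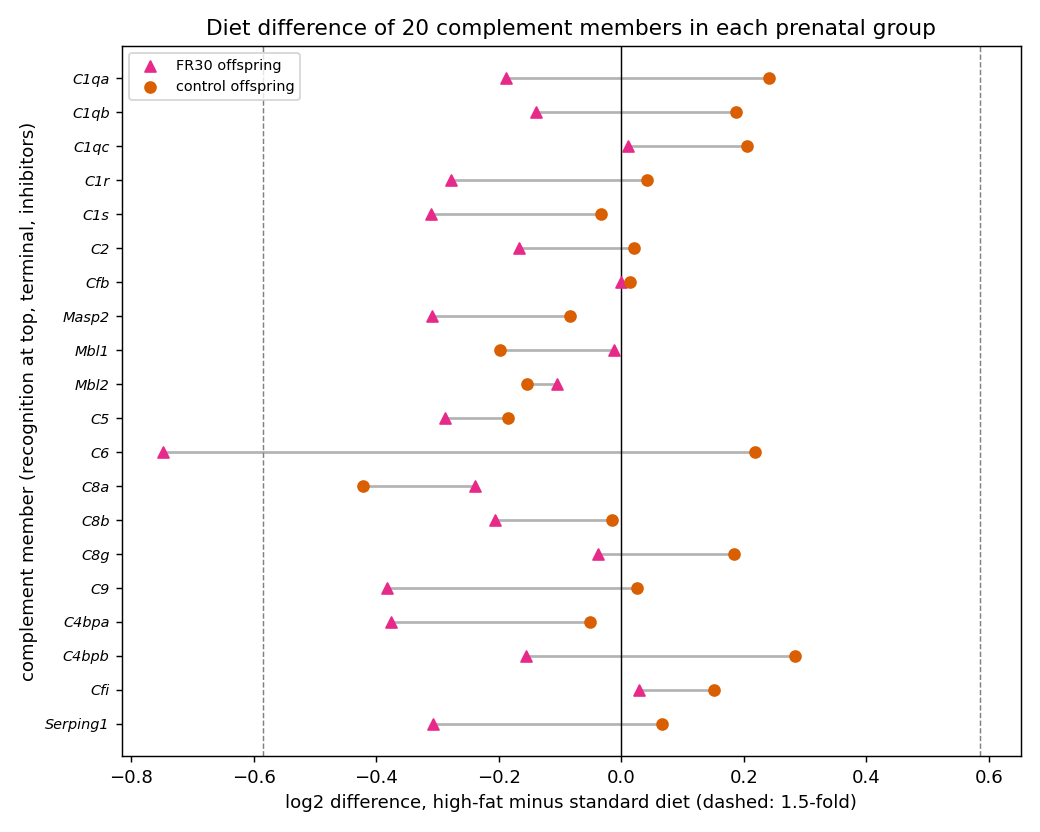
Log2 difference, high-fat minus standard diet, of 20 of the 21 complement members detected in all 4 samples, with triangles for FR30 offspring and circles for control offspring; dashed lines mark 1.5-fold. Most triangles lie left of 0 and left of their circles, and C6 alone crosses a dashed line.

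Among the 17 coagulation, kinin and fibrinolysis members detected in all 4 samples, FR30 standard was the highest sample for 9 and FR30 high-fat the lowest for 7. Over all rows detected in all 4 samples these shares were 26.3% and 25.3%. With FR30 against control, 6 were above 0 and 11 below on the high-fat diet (median -0.05), and 12 above and 4 below on the standard diet (median 0.03). Over all rows, 50.9% were below 0 on the high-fat diet and 49.1% above 0 on the standard diet. These directions were like those of complement, but the medians were closer to 0. The 19 serpins detected in all 4 samples were split, with 9 above 0 and 10 below on the high-fat diet and 10 above and 9 below on the standard diet. The split on the high-fat diet depends on the processing. Without background removal 6 serpins were above 0 and 13 below there, and median scaling gave the same counts. Whether the families differ was not tested. The fibrinogen chain Fgb had a signal of 51963 ± 2807 in FR30 high-fat, 60048 ± 2925 in FR30 standard, 56730 ± 1634 in control high-fat and 59988 ± 2227 in control standard. The deposited signal was lower in both high-fat samples, but after quantile normalization the diet difference was 0.03 log2 units in FR30 offspring and -0.04 in control offspring. With median scaling it was -0.22 in FR30 offspring, so its direction there depends on the scaling. Fgg gave -0.20 and -0.12. Factor V (F5), the cofactor of prothrombin activation, gave 0.02 in FR30 and 0.27 in control offspring, and F13b, the carrier subunit of the fibrin-crosslinking factor XIII, gave -0.04 and 0.08.

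Of the vitamin K-dependent proteins, prothrombin (F2) and factors VII and IX gave log2 diet differences between -0.10 and 0.05. Factor X (F10), which converts prothrombin, gave -0.32 in FR30 and -0.19 in control offspring. Protein C (Proc), an anticoagulant protease, gave 0.12 and 0.13, and its cofactor protein S (Pros1) gave -0.26 and -0.07. Both diet differences of the family were small: over the 17 members detected in all 4 samples the medians were -0.04 in FR30 and 0.04 in control offspring.

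Tissue factor, F3, starts clotting when blood meets tissue and lay near the detection limit. Its signal was 194 ± 7.65 in FR30 high-fat, 268.5 ± 154 in FR30 standard, 215.7 ± 8.83 in control high-fat and 205.5 ± 11.4 in control standard. The FR30 standard sample was highest, with an STDEV of more than the gap to any other sample. On the background-removed scale the diet difference was -1.18 in FR30 offspring and 0.18 in control offspring. In the non-normalized table the FR30 standard sample was the lowest, at 172 against 208, 217 and 200 in FR30 high-fat, control high-fat and control standard, so the 3 counts that F3 enters rest on that sample.

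In the contact system, kininogen (Kng1) is the source of bradykinin. Its signal was 16983 ± 242 in FR30 high-fat, 21996 ± 274 in FR30 standard, 19950 ± 542 in control high-fat and 17560 ± 364 in control standard. The FR30 standard sample was highest and FR30 high-fat lowest. The log2 diet difference was -0.39 in FR30 and 0.16 in control offspring. Its 2 probes differed in FR30 offspring, at -0.44 and -0.04 in the non-normalized table after scaling between samples. Their unscaled signals with high-fat and standard feeding were 34487 and 36406 for 1 probe and 4040 and 3223 for the other. Factor XI (F11), a contact protease, gave -0.30 and -0.12, factor XII (F12), which starts the contact system, 0.14 and 0.11, and prekallikrein (Klkb1), which frees bradykinin, -0.07 and 0.10.

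In fibrinolysis, plasminogen (Plg) had a signal of 41582 ± 1909 in FR30 high-fat, 40551 ± 1514 in FR30 standard, 41492 ± 2374 in control high-fat and 40371 ± 1301 in control standard. The 4 samples differed by less than the deposited STDEVs. The detected row of Serpinf2, the main plasmin inhibitor, gave log2 diet differences of 0.12 in FR30 and 0.04 in control offspring. Serpinf2 also has a second row that was not detected, as have Serpinc1 and Serpinb6b.

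Of the anticoagulant serpins, antithrombin (Serpinc1) was level, with signals of 38897 ± 1067 in FR30 high-fat, 39276 ± 1911 in FR30 standard, 38387 ± 1823 in control high-fat and 39214 ± 781 in control standard. Heparin cofactor II (Serpind1) gave 0.16 in FR30 and 0.23 in control offspring, and Serpina10, which inhibits factor X with protein Z, gave -0.17 and 0.06. Serpina5, the protein C inhibitor, was dim, at 298 ± 12.7 in FR30 high-fat, 249 ± 8.81 in FR30 standard, 282.1 ± 2.8 in control high-fat and 333 ± 16.3 in control standard. FR30 standard was lowest and control standard highest. On the background-removed scale it was 1.76-fold lower in FR30 than in control offspring on the standard diet (log2 difference -0.82), and the diet differences were 0.54 in FR30 and -0.44 in control offspring. Without background removal the prenatal difference on the standard diet was -0.42. Serpine2, protease nexin, which inhibits thrombin at cell surfaces, gave 0.34 with diet in FR30 and 0.39 in control offspring.

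The clade A inhibitors lie close together in the genome. On chromosome 6 of GRCr8, 18 Serpina genes follow each other with 0 other protein-coding genes between them, and 11 of them are members. Serpina6 is the second of the 18 and Serpina5 the twelfth, whereas Serpina7 lies on the X chromosome. Within the row, Serpina1 gave log2 diet differences of 0.06 in FR30 (-0.19 with median scaling) and -0.03 in control offspring. Serpina3k (now Serpina3c), a kallikrein-binding protein in the rat, gave -0.11 and -0.01, Serpina3m 0.11 and -0.04, and Serpina3n -0.05 and -0.22. Serpina4 gave -0.16 and -0.24, and Serpina11 gave 0.14 and 0.33. Serpina9 and Serpina12 were not detected.

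Most clade B serpins, which stay inside cells, were not detected: of 15 rows, 4 were detected in all 4 samples, Serpinb3 and Serpinb8 in some, and 9 in none. Serpinb9, which inhibits granzyme B in humans, had a signal of 1029 ± 22.6 in FR30 high-fat, 981 ± 40.8 in FR30 standard, 1182 ± 29.1 in control high-fat and 895.8 ± 68.5 in control standard, with log2 diet differences of 0.09 in FR30 and 0.47 in control offspring. The control high-fat sample was highest. Serpinb6a gave 0.25 and 0.19, Serpinb6b 0.12 and 0.23, and Serpinb1a, which inhibits neutrophil elastase in humans, -0.17 and -0.21. Serpinb1a was also lower in both FR30 samples than in their controls, by a log2 difference of -0.45 on the high-fat diet and -0.49 on the standard diet. Of the remaining serpins, Serpinf1, pigment epithelium-derived factor, gave -0.31 in FR30 and -0.35 in control offspring, and Serpinh1, a collagen chaperone, 0.04 and -0.39.

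The same systems were looked up through genes outside the name rule. For the counts of these lists, the share of all rows past 1.5-fold either way with diet was 6.87% in FR30 and 5.81% in control offspring. For FR30 against control on the standard diet it was 4.05%. The lists are short, and no count was tested against these shares. Of 16 complement receptors and regulators found, 0 were higher and 1 lower with the high-fat diet in FR30 offspring (11 compared), and 1 was higher and 0 lower in control offspring (11 compared). The list's medians were -0.05 and 0.08. Both calls were of Cfd, factor D, which cleaves factor B and is made largely by adipocytes. The Cfd signal was 1279 in FR30 high-fat, 2803 in FR30 standard, 1553 in control high-fat and 1041 in control standard, and the FR30 standard value had a deposited STDEV of 3000. In the non-normalized table Cfd was 1490 in FR30 high-fat and 898 in FR30 standard, so the lower call in FR30 offspring turned in direction there. On the standard diet, 2 of 11 were higher and 0 lower in FR30 than in control offspring. These were Cfd (log2 difference 1.55) and Vsig4, a macrophage receptor for C3b (0.59). The Cfd call rests on the same FR30 standard value, and its unscaled non-normalized signals were 898 in FR30 standard and 945 in control standard. Vsig4 had no matched non-normalized value.

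Among 26 further clotting, kinin and fibrinolysis rows, 1 was higher with the high-fat diet in FR30 offspring (A2m, a broad protease inhibitor, log2 difference 1.06) and 0 in control offspring, and 0 were lower in either, with a median of 0.05 in each. On the standard diet, Tfpi, the tissue factor pathway inhibitor, was 0.74 log2 units higher and F2r, a thrombin receptor, 0.71 higher in FR30 than in control offspring. Of 8 rows for the vitamin K cycle and factor secretion, 1 was past 1.5-fold: Nqo1, a quinone reductase, was higher with the high-fat diet in FR30 (0.78) and control offspring (0.95).

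Acute phase and other secreted liver proteins were 2 higher and 0 lower of 21 with the high-fat diet in FR30 offspring, and 0 higher and 2 lower of 21 in control offspring, with medians of -0.06 and -0.03. The higher ones were Cd14 (1.31) and Lbp (0.68), which bind bacterial lipopolysaccharide and of which Cd14 is also a macrophage marker, and the lower ones were Orm1 (-1.07) and Crp (-0.64). Of 24 transcription factor and signalling rows, 1 was higher and 1 lower with the high-fat diet in FR30 offspring (17 compared), against 6.87% of all rows either way. In control offspring 1 was higher and 3 lower (18 compared), against 5.81% of all rows. Nr0b2, a repressor of bile acid synthesis, was higher with the high-fat diet in FR30 (1.44) and control offspring (1.5). Onecut1, a hepatocyte factor, was lower in both (-2.0 and -1.05). Foxa2 and Foxa3, of the forkhead family, gave 0.33 and -0.31 in FR30 offspring and -0.99 and -1.02 in control offspring.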

How the data were processed

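Total RNA from liver was hybridised to Illumina rat bead arrays. The authors deposited a normalized table with a signal intensity, an STDEV and a detection p-value per gene, per the file headers, and a second table of non-normalized intensity per probe. The array software was GenomeStudio, per the submitters' processing notes. How the values were normalized is not stated. The non-normalized table's identifiers did not match its values (r between 0.0587 and 0.0658 on the log2 scale), so it was matched to genes by row order and served as an alternative. That match gave values for all 76 members and used the signals, so its r between 0.9986 and 0.99998 is partly built in.

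Background was removed by limma 3.58.1 (R 4.3.3), whose normal-exponential fit took the detection p-values, with an offset of 16, followed by quantile normalization and log2. A row was detected at a detection p-value below 0.05. A row whose p-value had been averaged over probes was detected at or above the lowest detected single-probe signal, which concerned Serpina6 among the members named. Differences between 2 samples were counted at 1.5-fold, and the difference between diet differences at 2-fold. A row detected in 1 sample of a pair has a bound. With 1 sample a group no test was run, and the number of arrays limits the precision. Later steps used Python 3.11.15, numpy 2.4.6, pandas 2.3.3, numba 0.67.0 and matplotlib 3.10.9. The counting steps were tested on simulated data. Values of 2 members are not reported here, but counts and medians include them.

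Alternatives were no background removal, median scaling, a detection p-value below 0.01, leaving out values with an STDEV above 20%, and the non-normalized table. The members and the lists of other genes and cell markers were chosen with earlier results of these data known. The naming rule took members past 1.5-fold in any comparison or 2-fold in the difference between diet differences, the 3 brightest of each role and those with disagreeing rows. Other members are named to fill out their role and were chosen after their values were seen. Symbols were current for 74 rows in a RefSeq gene table of GRCr8, and Serpina3k and Serpinb9e were renamed through it. Promoter sequences are RefSeq's for the same assembly.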

Additional observations from a re-analysis of the deposited data

Results flagged for a closer look

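There were 4 members that had opposite directions under the same contrast, each by at least 1.2-fold both ways. The share of all rows that meet this rule was not counted, so the 4 have no background. At any size, 48.3% of all rows had the same sign in both prenatal comparisons, against 38.6% of members. For the 2 diet comparisons these shares were 59.7% and 59.3%. None of these differences was tested, since each group has 1 sample.

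Serpina5 was 0.54 log2 units higher with the high-fat diet in FR30 offspring and -0.44 apart in control offspring, a gap of -0.98 as control minus FR30. F3 was -0.43 log2 units apart, FR30 minus control, on the high-fat diet and 0.93 on the standard diet, a gap of 1.36 as standard minus high-fat, and its FR30 standard signal of 268.5 has an STDEV of 154. Serpina6 was -0.44 apart on the high-fat diet and 0.28 on the standard diet, a gap of 0.72. Serpina7 was -0.32 apart on the high-fat diet and 0.33 on the standard diet, a gap of 0.64. The gap for Serpina7 is smaller than its diet difference in either prenatal group.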

How the results depend on the processing

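Without background removal fewer rows passed each fold over all genes: 164 higher and 136 lower with the high-fat diet in FR30 offspring (356 and 308 with it), 112 and 137 in control offspring (240 and 311), 60 and 45 for FR30 against control on the high-fat diet (165 and 148), 84 and 70 on the standard diet (190 and 201), and 48 and 28 for the difference between diet differences (96 and 94). The members' lower count with diet in FR30 offspring was then 1, and those on the standard diet (1 higher and 1 lower before) and for the difference between diet differences were 0. Leaving out values with an STDEV above 20%, or using the non-normalized table, gave 1 lower with diet in FR30 offspring, 0 higher for FR30 on the standard diet and 0 for the difference between diet differences. A detection p-value below 0.01 also gave 0 for that difference. The member lost was F3 in each case, except for the lower call on the standard diet, which was Serpina5 (-0.42 in place of -0.82). In the non-normalized table F3 reversed, to 0.25 with diet in FR30 offspring and -0.45 for FR30 on the standard diet, both bounds. Serpina7, Serpina6 and C6 kept their direction and their side of 1.5-fold in the comparisons that counted them under all 5 alternatives. Serpina6 did so narrowly, at 0.59 log2 units in the non-normalized table against a cut of 0.585. Median scaling turned the direction of the diet difference of 2 of 60 members in FR30 offspring (Fgb and Serpina1) and of 1 of 59 in control offspring (C1s), none of them past 1.5-fold. No paired analysis was possible because each group has 1 sample. Dim members such as F3, Serpina5 and Serpinb1a lie near background, where its removal widens differences.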
